A study of Mus musculus with 12 samples.

Results

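The proteasome is the protein complex that degrades ubiquitin-tagged proteins, and its genes were taken from the table by symbol: those that start with Psma, Psmb, Psmc, Psmd, Psme, Psmf or Psmg, without Psmb8 and Psmb9. This gave 45 of the 15397 genes in the table, and each of the 45 was measured in every library, with at least 66 reads. All but 1 encode a subunit, a regulator or an assembly chaperone of the complex. The exception is Psmc3ip, a factor of meiotic recombination that is named for its binding to Psmc3.

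RNA was sequenced from the microdissected striatum of C57BL/6 mice in 4 groups of 3 mice. The groups were R6/2 mice on PLX3397, R6/2 mice on vehicle, wild-type mice on PLX3397 and wild-type mice on vehicle. R6/2 mice carry a transgene with the first exon of human huntingtin and an expanded CAG repeat, driven by the human huntingtin promoter, which makes them a Huntington's disease model. PLX3397, which blocks the Csf1 receptor that microglia need to survive, was given at 275 ppm in chow from week 7 to week 11 of age to deplete microglia. The study set R6/2 mice with and without microglia beside wild-type mice with and without them. Its samples are whole tissue, so fewer cells of a type and less RNA per cell cannot be told apart.

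As background, the complex has a hollow core of stacked rings. The outer rings of alpha subunits (Psma) gate the entry, and the inner rings of beta subunits (Psmb) hold the proteolytic sites. A cap sits on the core: its base has a ring of ATPases (Psmc) that unfold and thread the substrate, and its lid and scaffold (Psmd) bind ubiquitin and cut it off. In neurons of the R6/2 striatum, fragments of mutant huntingtin gather in inclusions that contain ubiquitin and proteasome subunits. Interferons are known to replace catalytic subunits of the core by inducible ones and to raise the activator made of Psme1 and Psme2.

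Libraries held 18902120 to 24293208 reads assigned to genes. The microglial marker list (10 of 10 measured) summed to 26.1 to 38.0 CPM in R6/2 on PLX3397 and 378 to 522 CPM in R6/2 on vehicle, and to 30.2 to 54.1 CPM in wild type on PLX3397 and 425 to 489 CPM in wild type on vehicle; Siglech was at 0 reads in 2 libraries and C1qc in 1. Markers of the striatum's main neurons, the medium spiny neurons (11 of 11), summed to 648 to 2248 CPM in R6/2 on PLX3397, 646 to 1561 in R6/2 on vehicle, 5924 to 12923 in wild type on PLX3397 and 2861 to 8095 in wild type on vehicle. Of these 11, 10 were called lower for genotype on PLX3397 and 4 for genotype on vehicle. Cortical neuron markers (7 of 7) were low in R6/2 PLX3397 libraries 1 and 2 and wild-type PLX3397 library 1 (50.4 to 76.6 CPM, against 259 to 1443 in the others). Choroid plexus markers (5 of 7) had a high sum in R6/2 vehicle library 1 (4537 CPM) and wild-type PLX3397 library 1 (1039 CPM), against 45.1 to 111 in the others. In wild-type PLX3397 library 1, Ttr, Folr1, Kl and Clic6 stood above every wild-type vehicle library. Otx2 stood below them there, at 1.74 log2 CPM against 1.84, 2.27 and 2.36. Markers of oligodendrocyte precursors (4 of 4) summed to 150 to 188 CPM in R6/2 on PLX3397, 162 to 214 in R6/2 on vehicle, 74.8 to 109 in wild type on PLX3397 and 205 to 217 in wild type on vehicle. Of these 4, 3 were called lower for the drug in wild type, 3 higher for genotype on PLX3397 and 3 above 0 for the interaction. Astrocyte markers (6 of 6) came to 2082 to 2871, 1966 to 3208, 2273 to 3235 and 3752 to 4996 CPM in the same order of groups, and 2 of the 6 were called lower both for the drug in wild type and for genotype on vehicle. Oligodendrocyte markers (6 of 6) came to 4482 to 7494, 5714 to 8792, 8820 to 11642 and 7513 to 14000 CPM, with 2 of 6 called lower for genotype on PLX3397. Markers of the thalamus, septum and pallidum (6 of 6) spread from 32.02 to 399 CPM over the libraries, and their median interaction was 3.53, with 1 of 6 called. The part of these cell type differences in the results below was not tested. With R6/2 PLX3397 libraries 1 and 2 left out, that group held 1 library. Loss of replication and loss of these libraries cannot be told apart there, so calls for genotype on PLX3397 and the interaction are not given. For the drug in wild type, with 3 libraries on each side, the count of called proteasome genes below was 2, where 1317 of all genes were called. With wild-type PLX3397 library 1, also low in cortical markers, left out as well, it was 21, where 1728 of all genes were called. This last alternative was added after seeing the data. In a further alternative R6/2 vehicle library 1 and wild-type PLX3397 library 1 were left out instead. The counts were then 29 for the drug in wild type, 29 for genotype on PLX3397 and 22 for the interaction. Of all genes 3560, 6046 and 2497 were then called, against 2191, 5389 and 2617 over all 12 libraries.

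Values are log2 CPM, the log of reads scaled to a common library size, and changes are log2 differences ± SE with n = 3 mice per group. They come from limma over all 12 libraries, with Benjamini-Hochberg adjustment over the 15397 genes, and a gene is called where the adjusted p is under 0.05.

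Per kilobase of transcript, Psmb6, a catalytic beta subunit, was the most abundant of the 45 genes, with a mean level of 7.13 log2 CPM per kb over the 12 libraries. Psmc5, an ATPase of the cap, followed at 7.00 and Psmb7, another catalytic subunit, at 6.80; between neighbours in this order the gap was smaller than the spread over libraries, whose SD was 0.36 for Psmb6, 0.30 for Psmc5 and 0.29 for Psmb7. The core and cap subunits lay between 3.65 (Psma3) and 7.13 log2 CPM per kb. The chaperones that assemble the core or the cap lay at the low end, from 3.42 for Psmg4 to 3.93 for Psmg3. Psme4, an activator cap known from the testis, was at 2.93, and Psmc3ip was the lowest at 1.82. The median of the 45 genes was 5.63 log2 CPM per kb, against 3.07 for all genes with a known length. These levels use the longest coding transcript, which is 2911 bases for Psma2 and 2846 for Psma3, so the per-kb levels of genes whose striatal transcript is shorter are understated. The trend on GC content and length that is removed below uses the same transcripts. Values with the trend removed, such as those of Psma2, and the grouping of genes by length depend on that choice too.

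As a set, the proteasome genes stood highest in 2 of 3 wild-type libraries on PLX3397. For each library, the median over the 45 genes of the difference from the gene's own mean was -0.10, -0.11 and -0.09 in R6/2 on PLX3397, 0.22, -0.03 and -0.09 in R6/2 on vehicle, -0.01, 0.55 and 0.25 in wild type on PLX3397 and -0.21, -0.26 and -0.06 in wild type on vehicle. Wild-type PLX3397 library 2 held the highest value of 33 of the 45 genes, and wild-type vehicle library 2 the lowest value of 24. R6/2 vehicle library 1 stood above the other 2 libraries of its group, and wild-type PLX3397 library 1 below the other 2 of its group. The 45 genes together took 3427 to 3711 CPM, without scaling, in R6/2 on PLX3397, 3552 to 4633 in R6/2 on vehicle, 3399 to 5287 in wild type on PLX3397 and 2922 to 3524 in wild type on vehicle.

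**Figure D1:**
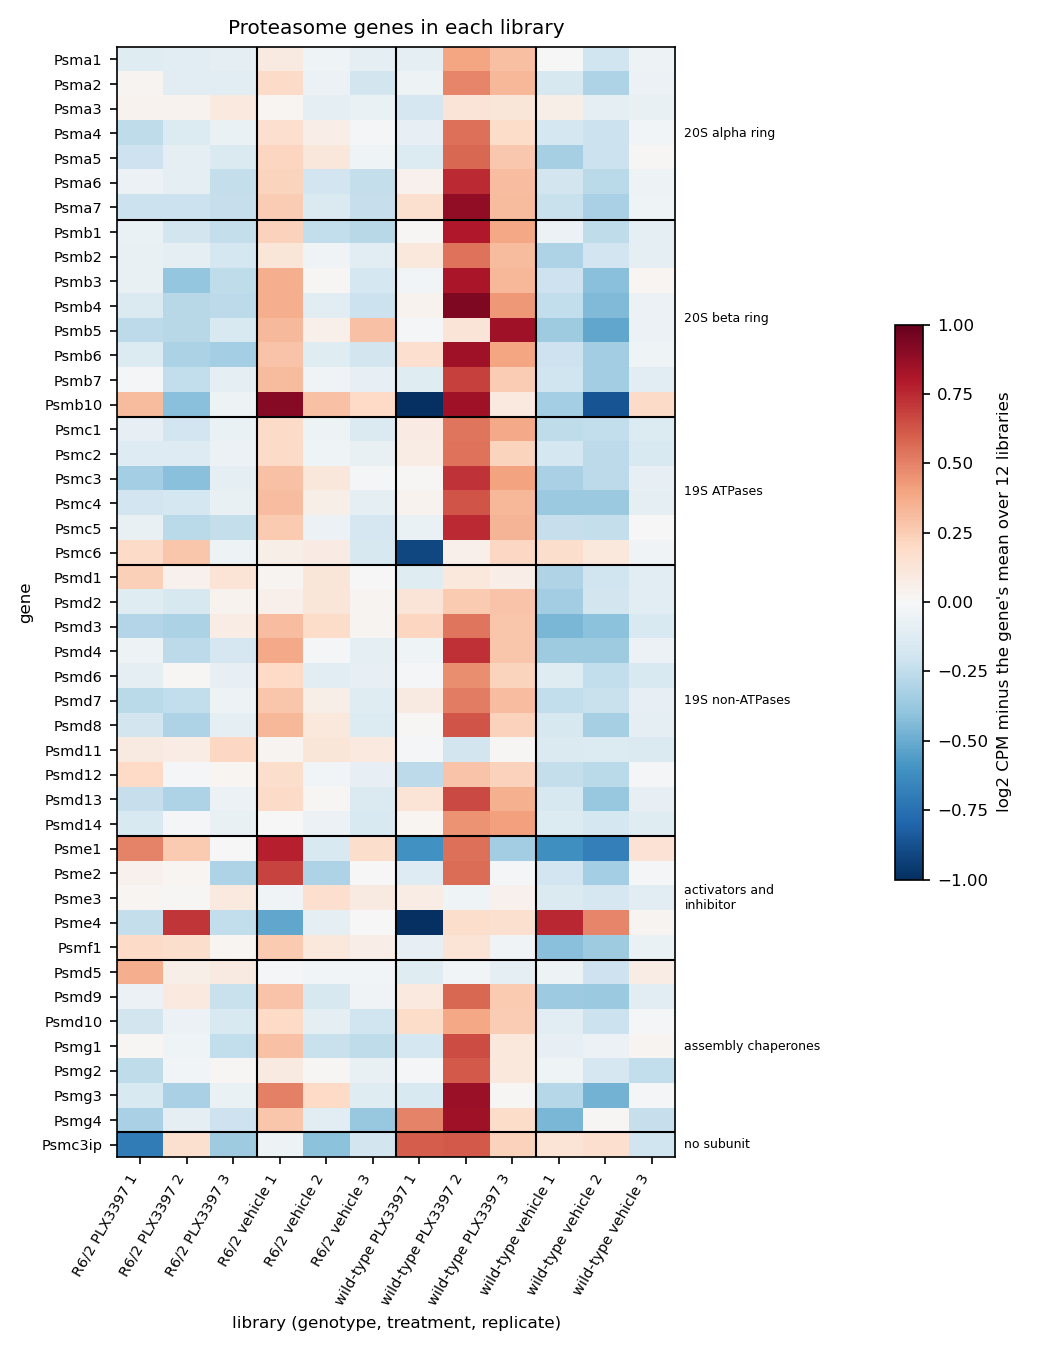
Heat map of the 45 proteasome genes (rows, by role) in the 12 libraries (columns, by group); colour is log2 CPM minus the gene's mean over the 12 libraries, and values beyond 1 or -1 take the end colour. Wild-type PLX3397 library 2 is the highest library for 33 of the 45 genes, and Psmb10, Psme1, Psme4 and Psmc6 depart from the common pattern.

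In wild-type mice, 13 of the 45 proteasome genes were higher on PLX3397 than on vehicle, and none was called lower. The called genes were 4 of 6 ATPases of the cap (Psmc1, Psmc2, Psmc3 and Psmc4), 5 of 11 other cap subunits (Psmd2, Psmd3, Psmd7, Psmd13 and Psmd14), 2 of 8 beta subunits (Psmb2 and Psmb6), 1 of 7 alpha subunits (Psma7) and 1 of 7 chaperones (Psmd9). The 13 are 28.9% of the 45, against 5.93% of all genes called higher and 8.3% called lower, and the median change of the 45 was 0.45, against 0.005 over all genes. In 26 of the 45 genes (57.8%) every library on PLX3397 stood above every wild-type vehicle library, which held for 18.8% of all genes; 0 of the 45 stood below without overlap, against 17.3% of all genes. In the 14305 genes with an annotation, after a trend on transcript GC content and length was removed from every library, the count was 2 of 45 (Psma2 and Psmd14) and the median 0.20, with 1.12% of the 14305 genes called higher and 2.11% lower. The count was 0 without wild-type PLX3397 library 2 or wild-type vehicle library 1 or 2, 3 without wild-type PLX3397 library 3, 6 without R6/2 PLX3397 library 2, 8 without R6/2 PLX3397 library 1 or R6/2 vehicle library 3, and 28 without wild-type PLX3397 library 1. Calls over all genes moved the same way in the fits with a count of 0 or 28. They were 935, 228 and 242 where the count was 0 and 2716 where it was 28, against 2191 over all 12 libraries.

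On PLX3397, 20 of the 45 proteasome genes were lower in R6/2 than in wild-type mice and none was called higher. They were 5 of 8 beta subunits (Psmb1, Psmb2, Psmb3, Psmb4 and Psmb6), 5 of 6 ATPases (Psmc1 to Psmc5), 6 of 11 other cap subunits (Psmd2, Psmd3, Psmd7, Psmd8, Psmd13 and Psmd14), 1 of 7 alpha subunits (Psma7), 2 of 7 chaperones (Psmd10 and Psmg4) and Psmc3ip. The 20 are 44.4% of the 45, against 17.9% of all genes called lower, and the median of the 45 was -0.38, against -0.003 over all genes. In 24 of the 45 (53.3%) every R6/2 library stood below every wild-type library, against 24.2% of all genes, and the other way round this held for 2 (4.44%, against 22.6%). This comparison shares the wild-type PLX3397 libraries with the one before it. With the GC and length trend removed, 6 were lower (Psma1, Psma2, Psma4, Psma6, Psmd10 and Psmd14) and 1 higher (Psme1), with 11.7% of 14305 genes called lower and 12.1% higher, a median of -0.11, and differences just above 0 for Psmb2, Psmb3, Psmc4, Psmd3 and Psmg4. The count was 3 without R6/2 PLX3397 library 2, 4 without R6/2 PLX3397 library 1 or wild-type PLX3397 library 2, 8 without R6/2 PLX3397 library 3, 9 without wild-type PLX3397 library 3, 11 without wild-type vehicle library 1 or 2 and 12 without R6/2 vehicle library 2. Calls over all genes also fell in the first of these fits. They were 3461 without R6/2 PLX3397 library 2, 3383 without its library 1 and 4275 without wild-type PLX3397 library 2, against 5389 over all 12 libraries.

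R6/2 and wild-type mice on vehicle did not differ by a called amount in any of the 45 genes. At an unadjusted p under 0.05, limma gave 8 genes higher (Psmb5, Psmc4, Psmd1, Psmd2, Psmd3, Psmd11, Psme3 and Psmf1) and 0 lower, and limma-voom on recovered reads also called 0 of the 45. Over all genes, 0.617% were called higher and 1.49% lower, by adjusted p. Shares of all genes at an unadjusted p are not given here, so counts at that threshold have no background beside them. The median of the 45 genes was 0.22, against 0.01 over all genes. Of the 45 differences 40 (88.9%) were above 0, against 50.8% of those of all genes. In 13 of the 45 (28.9%) every R6/2 library stood above every wild-type library, against 16.4% of all genes, and the other way round this held for Psme4 alone of the 45 (2.22%, against 17.1%). With the GC and length trend removed, limma called 0 of the 45, with a median of 0.14 and 4 genes at an unadjusted p under 0.05, while 1.15% of the 14305 genes were called higher and 3.18% lower.

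In R6/2 mice, PLX3397 changed none of the 45 genes by a called amount. At an unadjusted p under 0.05, limma gave 0 higher and 2 lower (Psmc3 and Psmd3), and limma-voom also called 0. Of all genes 0.0585% were called higher and 1.04% lower, by adjusted p, and no share at the unadjusted p is given. The median of the 45 was -0.11, against -0.01 over all genes. Of the 45 differences 38 were below 0 and 15.6% above it, where 48.5% of those of all genes were above 0. With the trend on GC and length taken out the median of the 45 was -0.01. There 0 of the 45 were called, against 0.0489% of the 14305 genes higher and 1.1% lower. The groups did not overlap in 4 genes that were lower on PLX3397 (8.89%, against 11.9% of all genes) and in 2 that were higher (4.44%, against 12.2%).

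The interaction, that is the drug's R6/2 change less its wild-type change, was called for 12 of the 45 genes, all below 0. They were 3 beta subunits (Psmb2, Psmb5 and Psmb6), 4 ATPases (Psmc1, Psmc2, Psmc3 and Psmc4) and 5 other cap subunits (Psmd2, Psmd3, Psmd7, Psmd8 and Psmd13). The 12 are 26.7% of the 45, against 7.71% of all genes called below 0 and 9.29% above, and the median of the 45 was -0.60, against -0.05 over all genes. With the GC and length trend removed, 0 of the 45 were called by limma, with a median of -0.22. Of the 14305 genes 0.147% were called below 0 and 0.14% above. By limma 11 of the 45 had an unadjusted p under 0.05, all below 0, with no share of all genes at that threshold given. The count was 1 without R6/2 PLX3397 library 1 or 2, R6/2 vehicle library 1 or wild-type vehicle library 1 or 2, 3 without R6/2 vehicle library 2, 5 without wild-type PLX3397 library 2, 7 without wild-type PLX3397 library 3 and 27 without wild-type PLX3397 library 1. Calls over all genes moved the same way in the fits with a count of 1 or 27. They were 862, 683, 1158, 537 and 625 where the count was 1 and 3532 where it was 27, against 2617 over all 12 libraries.

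**Figure D2:**
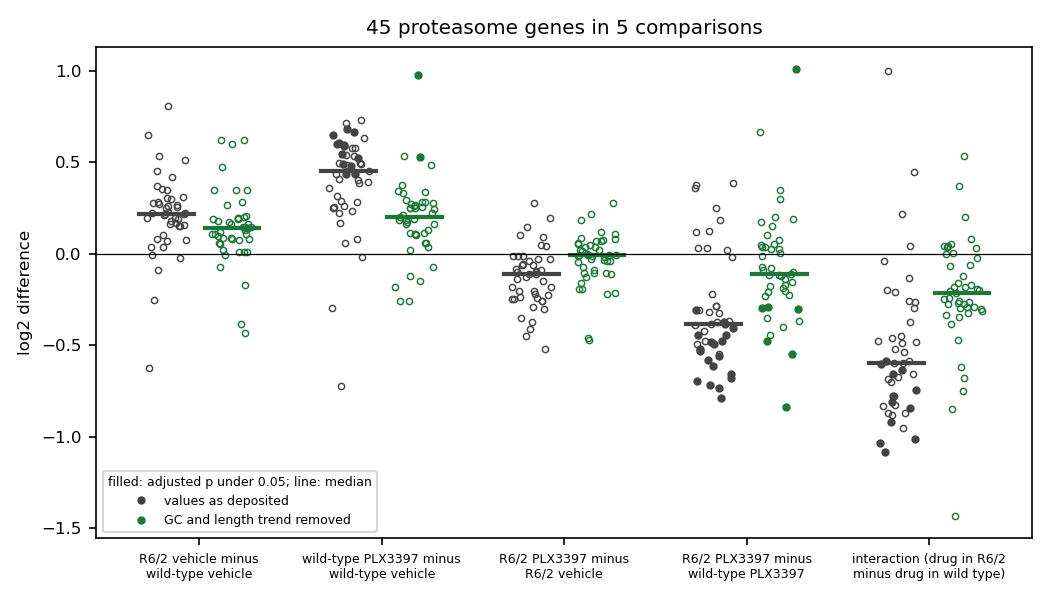
Log2 differences of the 45 proteasome genes in the 5 comparisons (1 point per gene, spread sideways at random), as deposited (grey) and after removal of the GC and length trend (green); filled points are called, bars are medians. As deposited the medians are 0.22, 0.45, -0.11, -0.38 and -0.60 from left to right, and with the trend removed they are nearer 0.

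Transcript GC content and length moved with these differences. Over all genes with an annotation, the drug's change in wild type had a Spearman correlation of 0.548 with GC content and -0.504 with transcript length. Over the 45 proteasome genes it was 0.624 with GC content and -0.426 with length. For R6/2 against wild type on PLX3397 the same values over the 45 genes were -0.506 and 0.480, and for the interaction -0.771 and 0.481. These are descriptions over genes that share the same 12 libraries. Proteasome transcripts are short, with a median of 1440 bases against 3228 over all genes, and 42 of the 45 are shorter than that; their median GC content was 49.8%, against 50.3%. Library by library, the correlation across all genes between the difference from the gene's mean and transcript length was -0.60 and -0.34 in wild-type PLX3397 libraries 2 and 3 and -0.42 in R6/2 vehicle library 1, the 3 libraries in which the proteasome genes stood highest. It was -0.12 in wild-type PLX3397 library 1 and 0.02 to 0.37 in the other 8. With GC content the correlation was 0.36, 0.25 and 0.31 in the same 3 libraries, but it was highest, at 0.45, in wild-type PLX3397 library 1, where the proteasome median was -0.01; in the other 8 it was -0.53 to 0.04. The 10 proteasome genes over 2500 bases had a median change on PLX3397 in wild type of 0.19 with 2 called, and the other 35 a median of 0.49 with 11 called. Of the 13 genes called as deposited, Psmd14 was the 1 still called after removal of the trend.

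**Figure D3:**
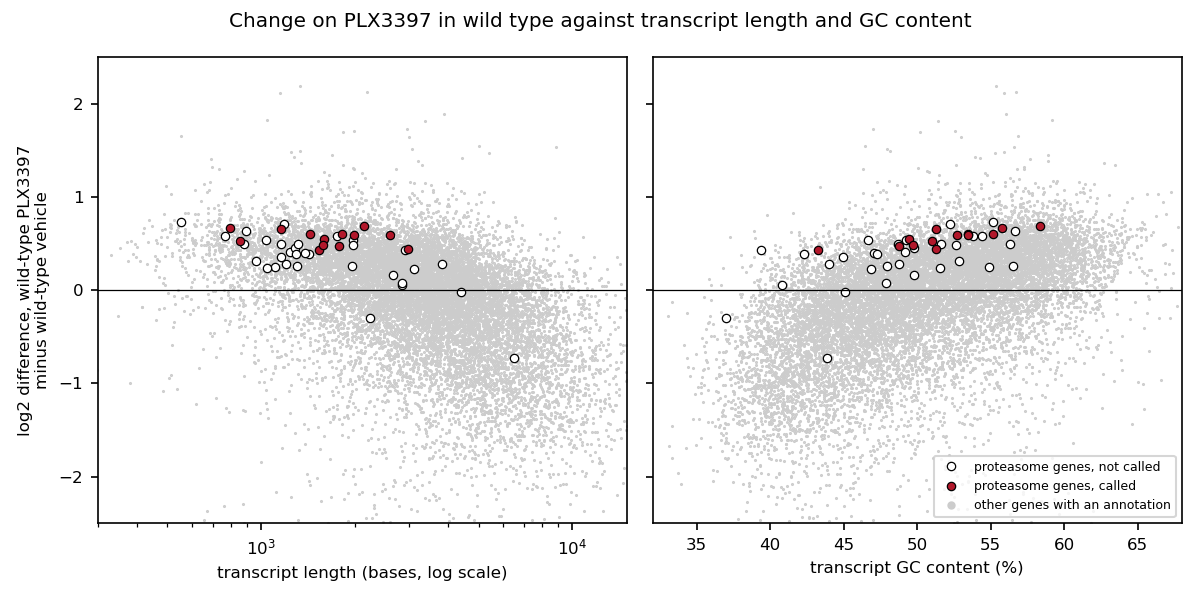
Change on PLX3397 in wild type (log2 difference, vertical axis) against transcript length (left, log scale) and GC content (right); grey points are other genes with an annotation, open circles proteasome genes not called and red circles the 13 called. The vertical axis is limited to 2.5 either way. Psme4, the longest of the 45 at 6491 bases, and Psmc6, the poorest in GC at 37.0%, lie lowest among the proteasome genes, at -0.72 and -0.30.

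The catalytic beta subunits come first among the roles. Psmb6, which cuts after acidic residues (NCBI gene 19175; GRCm38 chromosome 11, 70525324 to 70527858, protein coding), had 6.66, 6.48 and 6.46 log2 CPM in R6/2 on PLX3397 and 7.09, 6.68 and 6.61 in R6/2 on vehicle. Psmb6 in wild type had 6.97, 7.65 and 7.19 on PLX3397 and 6.59, 6.46 and 6.76 on vehicle. Its wild-type PLX3397 libraries stood above those of both groups it was compared with, without overlap. It was higher on PLX3397 in wild type by 0.67 ± 0.18, limma adjusted p = 0.0364, and lower in R6/2 than in wild type on PLX3397, with a difference of -0.73 ± 0.18, limma adjusted p = 0.0117. The first of these calls held in 14 of 23 alternatives and the second in 20, neither of them with the trend removed, where the second difference was -0.01 ± 0.09. The interaction was -0.92 ± 0.26, limma adjusted p = 0.0353, called in 10 of 22 alternatives, with -0.02 ± 0.13 after removal of the trend.

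Psmb5, which cuts after hydrophobic residues and is the main target of proteasome inhibitors (gene 19173; chromosome 14, 54614120 to 54617995, protein coding), had 5.12, 5.09 and 5.22 log2 CPM in R6/2 on PLX3397 and 5.70, 5.42 and 5.66 in R6/2 on vehicle. Psmb5 values in wild type were 5.36, 5.51 and 6.22 on PLX3397 and 5.02, 4.86 and 5.31 on vehicle. Its highest library was wild-type PLX3397 library 3, where Psmb1 to Psmb4, Psmb6 and Psmb7 had theirs in library 2, and its R6/2 vehicle libraries stood above the wild-type vehicle libraries without overlap. The drug's change was -0.45 ± 0.21, limma adjusted p = 0.383 in R6/2 and 0.63 ± 0.21, limma adjusted p = 0.0634 in wild type, neither of them called. The interaction was called, at -1.08 ± 0.29, limma adjusted p = 0.0327. With the trend removed it was -0.17 ± 0.34.

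Psmb7, which cuts after basic residues, had 7.00, 6.77 and 6.93 log2 CPM in R6/2 on PLX3397 and 7.33, 6.98 and 6.93 in R6/2 on vehicle. Psmb7 in wild type had 6.90, 7.70 and 7.27 on PLX3397 and 6.82, 6.67 and 6.90 on vehicle. No comparison called it. Psmb10 takes its place in the immunoproteasome, the form induced by interferon. It had 5.24, 4.51 and 4.88 log2 CPM in R6/2 on PLX3397 and 5.83, 5.22 and 5.13 in R6/2 on vehicle. Psmb10 values in wild type were 3.74, 5.78 and 5.03 on PLX3397 and 4.58, 4.06 and 5.12 on vehicle. Its values spread over 2.10 log2 units, from 3.74 in wild-type PLX3397 library 1 to 5.83 in R6/2 vehicle library 1, the widest range among the 45 genes. R6/2 vehicle libraries stood above wild-type vehicle libraries without overlap, but the difference of 0.81 ± 0.45, limma adjusted p = 0.307 was not called. Psmb8 and Psmb9, the other inducible catalytic subunits, were outside the rule and differed by 1.00 ± 0.31, limma adjusted p = 0.107 and 0.91 ± 0.41, limma adjusted p = 0.223 in the same comparison. Psmb8, Psmb9, Tap1, Tap2 and Irf1, 5 genes listed as partners of the immunoproteasome, summed to 26.7 to 27.8 CPM in R6/2 on PLX3397, 27.9 to 51.8 in R6/2 on vehicle, 20.1 to 22.7 in wild type on PLX3397 and 15.3 to 23.3 in wild type on vehicle. The R6/2 and wild-type ranges of this sum did not overlap on either diet. Gene by gene, Psmb8, Psmb9 and Irf1 overlapped on PLX3397, where limma called 0 of the 5. On vehicle Psmb9 and Tap1 overlapped, and Irf1 alone was called. With the GC and length trend removed, limma called Tap1 (1.23) and Tap2 (0.78) higher in R6/2 on PLX3397, where 12.1% of the 14305 genes were called higher. On vehicle it then called Tap2 (0.83) and Irf1 (0.79) higher, against 1.15% of those genes. Over all genes, R6/2 stood above wild type without overlap in 22.6% on PLX3397 and 16.4% on vehicle.

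**Figure D4:**
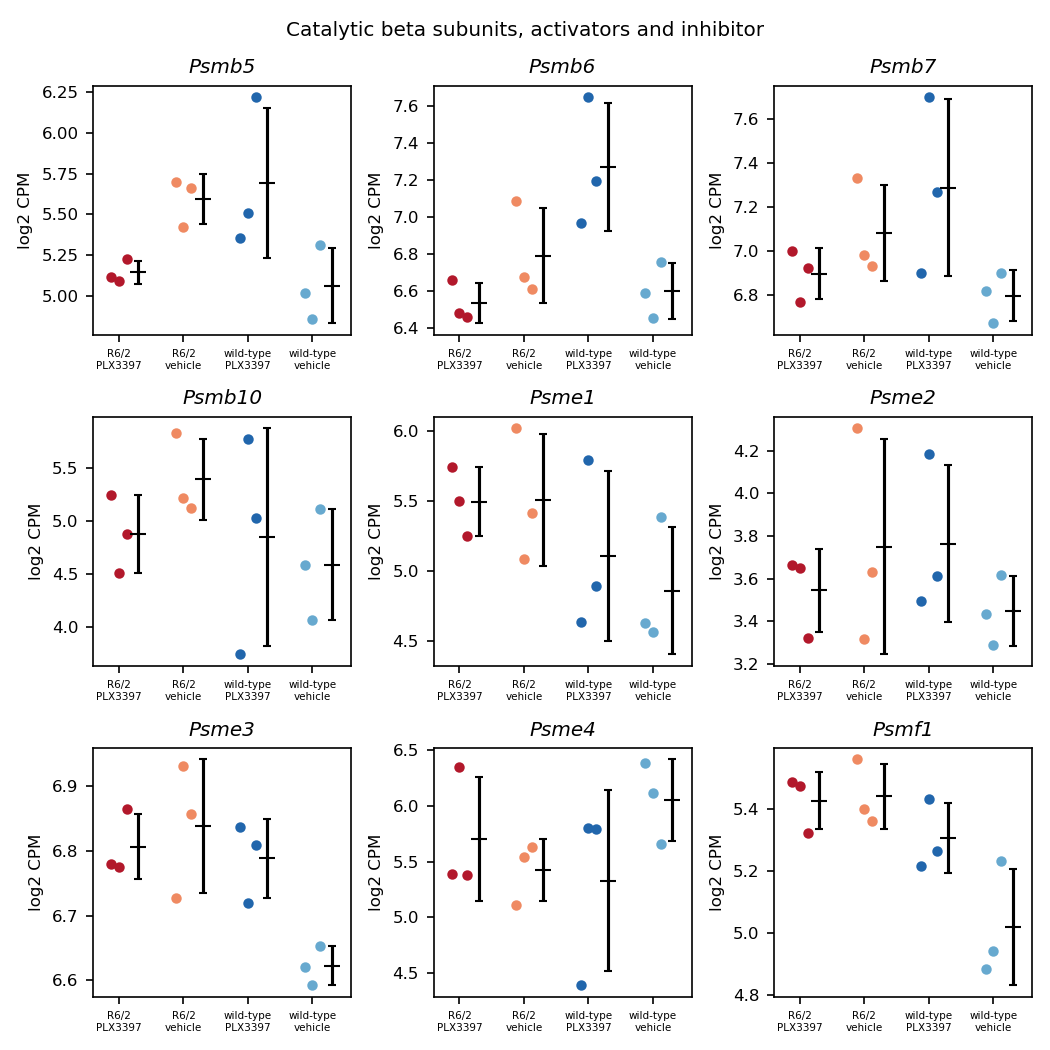
Log2 CPM of the catalytic beta subunits (Psmb5, Psmb6, Psmb7 and the inducible Psmb10), the activators (Psme1 to Psme4) and the inhibitor Psmf1 in the 4 groups; points are the libraries in the order 1 to 3, black bars the mean ± SD (n = 3), and each panel has its own vertical scale. Psmb6 is highest in wild type on PLX3397, while Psmb10, Psme1 and Psme4 spread widely within groups.

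The other beta subunits have no catalytic site. Psmb2 had 5.92, 5.89 and 5.81 log2 CPM in R6/2 on PLX3397 and 6.12, 5.96 and 5.89 in R6/2 on vehicle. Psmb2 in wild type had 6.10, 6.54 and 6.31 on PLX3397 and 5.68, 5.80 and 5.89 on vehicle. Its change on PLX3397 in wild type was 0.53 ± 0.13, limma adjusted p = 0.0248, its difference between R6/2 and wild type on PLX3397 -0.44 ± 0.13, limma adjusted p = 0.0208 and its interaction -0.64 ± 0.18, limma adjusted p = 0.0360. With the trend removed the last 2 were 0.05 ± 0.10 and 0.00 ± 0.14, so their direction was not kept.

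Psmb1 had 7.06, 6.95 and 6.89 log2 CPM in R6/2 on PLX3397 and 7.36, 6.88 and 6.85 in R6/2 on vehicle. Psmb1 values in wild type were 7.14, 7.93 and 7.52 on PLX3397 and 7.07, 6.87 and 7.03 on vehicle. Its R6/2 PLX3397 libraries were all below its wild-type PLX3397 libraries, while the vehicle groups overlapped. Psmb3 had 5.19, 4.87 and 5.01 log2 CPM in R6/2 on PLX3397 and 5.62, 5.27 and 5.09 in R6/2 on vehicle. Psmb3 in wild type had 5.24, 6.08 and 5.60 on PLX3397 and 5.06, 4.84 and 5.29 on vehicle. Here too R6/2 and wild type on PLX3397 did not overlap, with wild-type library 1 the nearest. Psmb4 had 6.87, 6.74 and 6.75 log2 CPM in R6/2 on PLX3397 and 7.38, 6.91 and 6.80 in R6/2 on vehicle. Psmb4 values in wild type were 7.05, 7.95 and 7.45 on PLX3397 and 6.77, 6.57 and 6.96 on vehicle. Its wild-type PLX3397 libraries stood above both wild-type vehicle and R6/2 PLX3397 libraries. The differences were -0.56 ± 0.19, limma adjusted p = 0.0428 for Psmb1, -0.62 ± 0.22, limma adjusted p = 0.0479 for Psmb3 and -0.69 ± 0.22, limma adjusted p = 0.0307 for Psmb4. None of the 3 was called for the drug in wild type, where Psmb4 changed by 0.71 ± 0.22, limma adjusted p = 0.0509.

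Promoters were searched for 3 motifs, since proteasome genes are known to be raised together by Nfe2l1 and the inducible ones by interferon. RefSeq promoters on GRCm38.p6, from 250 bases before to 50 after the start, were found for 38 of the 45 genes (41 promoters). On both strands, TGACNNNGC, the antioxidant response element that Nfe2l1 binds, was in 6 of the 41 (14.6%, against 12.4% of all 32851 promoters of the table). These were the promoters of Psmb5, Psmb6, Psmc6, Psmd9, Psmd12 and Psme4. Of these genes only Psmb5 and Psmb6 were called for the interaction, which was above 0 for Psmc6 (0.45) and Psme4 (1.00). CCAAT, bound by NF-Y, was in 13 (31.7%, against 37.4%). The interferon-stimulated response element, searched as GAAA and a second GAAA with any 2 bases between, was in 5 (12.2%, against 3.44%): those of Psmb3, Psmd4, Psmd9, Psme1 and Psmg4. A match describes letters only. The sequences below are those of 2 catalytic subunits called for the interaction, each with a TGACNNNGC match, and of Psme1, with an interferon element on the strand opposite the gene; capitals mark the match, and no other match to the 3 motifs lies in these windows.
Psmb6, chr11:70525107-70525406, plus strand, match from position -9: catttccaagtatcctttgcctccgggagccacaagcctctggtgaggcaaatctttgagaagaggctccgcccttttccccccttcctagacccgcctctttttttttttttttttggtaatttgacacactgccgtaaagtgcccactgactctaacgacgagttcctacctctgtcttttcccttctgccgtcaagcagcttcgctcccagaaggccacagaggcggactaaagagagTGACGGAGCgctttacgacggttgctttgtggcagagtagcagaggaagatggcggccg
Psmb5, chr14:54617946-54618245, minus strand, match from position -47: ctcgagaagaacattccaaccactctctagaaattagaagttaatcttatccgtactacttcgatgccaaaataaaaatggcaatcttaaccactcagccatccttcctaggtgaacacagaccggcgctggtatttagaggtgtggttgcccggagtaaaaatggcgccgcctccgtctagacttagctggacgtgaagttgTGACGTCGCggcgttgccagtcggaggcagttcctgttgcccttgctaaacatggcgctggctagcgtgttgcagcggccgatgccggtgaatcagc
Psme1, chr14:55578244-55578543, plus strand, match from position 10: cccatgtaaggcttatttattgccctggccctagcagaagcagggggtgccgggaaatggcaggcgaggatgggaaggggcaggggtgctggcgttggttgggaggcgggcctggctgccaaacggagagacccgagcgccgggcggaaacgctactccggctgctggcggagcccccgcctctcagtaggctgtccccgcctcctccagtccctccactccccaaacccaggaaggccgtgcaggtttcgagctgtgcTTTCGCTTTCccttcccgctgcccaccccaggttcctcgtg

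Among the 7 alpha subunits, Psma7 alone was called on the values as deposited. It had 6.32, 6.32 and 6.30 log2 CPM in R6/2 on PLX3397 and 6.79, 6.39 and 6.30 in R6/2 on vehicle. Psma7 in wild type had 6.69, 7.42 and 6.85 on PLX3397 and 6.31, 6.21 and 6.49 on vehicle. Its change on PLX3397 in wild type was 0.65 ± 0.19, limma adjusted p = 0.0421 and its difference between R6/2 and wild type on PLX3397 -0.68 ± 0.19, limma adjusted p = 0.0178. Psma1 to Psma6 had changes on PLX3397 in wild type of 0.06 (Psma3) to 0.54 (Psma6) and differences between R6/2 and wild type on PLX3397 of -0.50 (Psma6) to 0.03 (Psma3), none called. With the trend removed, 4 of them (Psma1, Psma2, Psma4 and Psma6) were called lower in R6/2 than in wild type on PLX3397, with -0.84 ± 0.21 for Psma2 and -0.29 ± 0.09 for Psma6.

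Of the ATPases of the cap base, 4 of 6 were called for the drug in wild type and 5 of 6 for genotype on PLX3397. Psmc3 (gene 19182; chromosome 2, 91054016 to 91059438, protein coding) had 6.97, 6.89 and 7.22 log2 CPM in R6/2 on PLX3397 and 7.60, 7.42 and 7.29 in R6/2 on vehicle. Psmc3 values in wild type were 7.32, 8.03 and 7.71 on PLX3397 and 6.98, 7.04 and 7.22 on vehicle. It was called for the drug in wild type (0.60 ± 0.17, limma adjusted p = 0.0431), for genotype on PLX3397 (-0.66 ± 0.17, limma adjusted p = 0.0148) and for the interaction (-1.01 ± 0.25, limma adjusted p = 0.0239). Psmc3 was also 1 of 2 proteasome genes with an unadjusted p under 0.05 for the drug in R6/2, at -0.41 ± 0.17, limma adjusted p = 0.362, where the groups did not overlap.

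Psmc1 had 7.21, 7.10 and 7.23 log2 CPM in R6/2 on PLX3397 and 7.48, 7.24 and 7.14 in R6/2 on vehicle. Psmc1 in wild type had 7.37, 7.83 and 7.67 on PLX3397 and 7.04, 7.05 and 7.15 on vehicle. Its wild-type PLX3397 libraries stood apart from both of the groups they are set against. Psmc2 had 6.76, 6.76 and 6.84 log2 CPM in R6/2 on PLX3397 and 7.08, 6.85 and 6.82 in R6/2 on vehicle. Psmc2 values in wild type were 6.97, 7.43 and 7.11 on PLX3397 and 6.72, 6.63 and 6.74 on vehicle. Its wild-type PLX3397 libraries were likewise apart from both, with library 2 the highest. Psmc4 had 6.43, 6.44 and 6.55 log2 CPM in R6/2 on PLX3397 and 6.93, 6.68 and 6.53 in R6/2 on vehicle. Psmc4 in wild type had 6.65, 7.25 and 6.95 on PLX3397 and 6.25, 6.25 and 6.53 on vehicle. Each of these 3 ATPases was higher in all wild-type PLX3397 libraries than in any wild-type vehicle or R6/2 PLX3397 library. Their changes on PLX3397 in wild type were 0.54 ± 0.13, limma adjusted p = 0.0260 for Psmc1, 0.48 ± 0.13, limma adjusted p = 0.0352 for Psmc2 and 0.61 ± 0.16, limma adjusted p = 0.0339 for Psmc4. The differences between R6/2 and wild type on PLX3397 were -0.45 ± 0.13, limma adjusted p = 0.0249, -0.38 ± 0.13, limma adjusted p = 0.0396 and -0.47 ± 0.16, limma adjusted p = 0.0410 in the same order. The interactions were -0.66 ± 0.19, limma adjusted p = 0.0384, -0.61 ± 0.18, limma adjusted p = 0.0439 and -0.84 ± 0.23, limma adjusted p = 0.0324.

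Psmc5 had 7.33, 7.13 and 7.16 log2 CPM in R6/2 on PLX3397 and 7.66, 7.34 and 7.23 in R6/2 on vehicle. Psmc5 values in wild type were 7.33, 8.14 and 7.74 on PLX3397 and 7.17, 7.16 and 7.40 on vehicle. It was called for genotype on PLX3397 alone (-0.53 ± 0.19, limma adjusted p = 0.0497), and 7 of 23 alternatives kept that call. Psmc6 differed from the other ATPases in the sign of its difference in every comparison, though none was called. Psmc6 differed by -0.09 for genotype on vehicle, 0.15 for the drug in R6/2 and 0.36 for genotype on PLX3397. It had 6.24, 6.33 and 6.00 log2 CPM in R6/2 on PLX3397 and 6.11, 6.13 and 5.89 in R6/2 on vehicle. Psmc6 in wild type had 5.14, 6.10 and 6.26 on PLX3397 and 6.23, 6.16 and 6.01 on vehicle. Wild-type PLX3397 library 1 was its lowest, and no comparison called it; its change on PLX3397 in wild type was -0.30 ± 0.24, limma adjusted p = 0.405 and its interaction 0.45 ± 0.34, limma adjusted p = 0.364. With the trend removed the interaction was -0.85 ± 0.31, on the side of the other ATPases.

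Of the other cap subunits, Psmd3, a part of the lid scaffold (gene 22123; chromosome 11, 98682554 to 98695978, protein coding), gave the smallest adjusted p of the 45 genes for the drug in wild type and for the interaction. It had 6.85, 6.82 and 7.21 log2 CPM in R6/2 on PLX3397 and 7.45, 7.32 and 7.17 in R6/2 on vehicle. Psmd3 values in wild type were 7.35, 7.68 and 7.42 on PLX3397 and 6.68, 6.73 and 6.99 on vehicle. The drug's change in wild type was 0.68 ± 0.15, limma adjusted p = 0.0176, kept in 18 of 23 alternatives. R6/2 minus wild type on PLX3397 was -0.52 ± 0.15, limma adjusted p = 0.0195. The interaction of -1.04 ± 0.21, limma adjusted p = 0.0156 was kept in 19 of 22 alternatives, with -0.32 ± 0.14 once the trend was removed.

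Psmd14 is the deubiquitinase that removes the ubiquitin chain before degradation (gene 59029; chromosome 2, 61711694 to 61800376, protein coding). It had 6.53, 6.67 and 6.61 log2 CPM in R6/2 on PLX3397 and 6.69, 6.63 and 6.53 in R6/2 on vehicle. Psmd14 in wild type had 6.70, 7.13 and 7.09 on PLX3397 and 6.55, 6.50 and 6.56 on vehicle. It was the 1 gene of the 45 called for the drug in wild type both as deposited (0.44 ± 0.12, limma adjusted p = 0.0394) and with the trend removed (0.53 ± 0.09). For genotype on PLX3397 it was likewise called both ways (-0.37 ± 0.12, limma adjusted p = 0.0357; -0.48 ± 0.09 with the trend removed), as was the chaperone Psmd10. Psmd14 lost its call for the drug in wild type in 13 of 23 alternatives, and its adjusted p by limma ran from 0.00807 to 0.129 over the 23.

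Psmd7, the inactive partner of Psmd14, had 6.65, 6.67 and 6.87 log2 CPM in R6/2 on PLX3397 and 7.20, 6.98 and 6.80 in R6/2 on vehicle. Psmd7 values in wild type were 7.01, 7.44 and 7.23 on PLX3397 and 6.68, 6.70 and 6.84 on vehicle. Wild type on PLX3397 did not overlap with wild type on vehicle or with R6/2 on PLX3397. Psmd13, a lid subunit, had 6.28, 6.21 and 6.46 log2 CPM in R6/2 on PLX3397 and 6.71, 6.53 and 6.37 in R6/2 on vehicle. Psmd13 in wild type had 6.65, 7.18 and 6.87 on PLX3397 and 6.36, 6.13 and 6.43 on vehicle. The same groups were apart. Psmd2, a large scaffold of the base that docks ubiquitin shuttles, had 7.80, 7.76 and 7.95 log2 CPM in R6/2 on PLX3397 and 7.97, 8.04 and 7.94 in R6/2 on vehicle. Psmd2 values in wild type were 8.05, 8.18 and 8.20 on PLX3397 and 7.57, 7.73 and 7.81 on vehicle. These 3 were called for the drug in wild type (0.49 ± 0.14, limma adjusted p = 0.0422, 0.59 ± 0.15, limma adjusted p = 0.0311 and 0.44 ± 0.11, limma adjusted p = 0.0250). They were lower in R6/2 than in wild type on PLX3397 (-0.49 ± 0.14, limma adjusted p = 0.0204, -0.58 ± 0.15, limma adjusted p = 0.0146 and -0.31 ± 0.11, limma adjusted p = 0.0428), and their interactions were -0.75 ± 0.20, limma adjusted p = 0.0307, -0.81 ± 0.22, limma adjusted p = 0.0313 and -0.59 ± 0.15, limma adjusted p = 0.0278.

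Psmd8, another lid subunit, had 6.44, 6.31 and 6.53 log2 CPM in R6/2 on PLX3397 and 6.95, 6.72 and 6.48 in R6/2 on vehicle. Psmd8 in wild type had 6.63, 7.24 and 6.85 on PLX3397 and 6.46, 6.29 and 6.52 on vehicle. It was called for genotype on PLX3397 (-0.48 ± 0.17, limma adjusted p = 0.0455) and for the interaction (-0.78 ± 0.24, limma adjusted p = 0.0458), but not for the drug in wild type (0.49 ± 0.17, limma adjusted p = 0.0727). The other 5 cap subunits, Psmd1, Psmd4, Psmd6, Psmd11 and Psmd12, were called in no comparison. The smallest adjusted p among them was that of Psmd4, a ubiquitin receptor of the cap, for the interaction (-0.83 ± 0.27, limma adjusted p = 0.0579), with 0.58 ± 0.19, limma adjusted p = 0.0655 for the drug in wild type. Psmd11, whose changes were 0.08 ± 0.10, limma adjusted p = 0.594 for the drug in wild type and 0.18 ± 0.10, limma adjusted p = 0.165 for genotype on PLX3397, was the 1 cap subunit higher in every R6/2 PLX3397 library than in every wild-type PLX3397 library.

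Of the activators and the inhibitor, 0 of 5 were called by limma, or by limma-voom on recovered reads, in any comparison of the values as deposited. At an unadjusted p under 0.05 limma gave Psme3 and Psmf1 higher in R6/2 than in wild type on vehicle and Psmf1 higher on PLX3397 in wild type. Psme1 and Psme2 form the interferon-inducible activator of the core. Psme1 (gene 19186) had 5.74, 5.50 and 5.25 log2 CPM in R6/2 on PLX3397 and 6.02, 5.09 and 5.42 in R6/2 on vehicle. Psme1 values in wild type were 4.64, 5.79 and 4.90 on PLX3397 and 4.63, 4.56 and 5.38 on vehicle. Its groups overlapped in all 4 comparisons of groups. Psme2 had 3.67, 3.65 and 3.32 log2 CPM in R6/2 on PLX3397 and 4.30, 3.32 and 3.63 in R6/2 on vehicle. Psme2 in wild type had 3.50, 4.18 and 3.61 on PLX3397 and 3.43, 3.29 and 3.62 on vehicle. Their highest library was R6/2 vehicle library 1, at 6.02 and 4.30, and both were also high in wild-type PLX3397 library 2. R6/2 vehicle differed from wild-type vehicle by 0.65 ± 0.33, limma adjusted p = 0.269 for Psme1 and 0.30 ± 0.26, limma adjusted p = 0.517 for Psme2. Between R6/2 and wild type on PLX3397 Psme1 differed by 0.39 ± 0.33, limma adjusted p = 0.380, and this was called once the trend was removed (1.01 ± 0.23).

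Psme3, an activator found in the nucleus, had 6.78, 6.78 and 6.86 log2 CPM in R6/2 on PLX3397 and 6.73, 6.93 and 6.86 in R6/2 on vehicle. Psme3 values in wild type were 6.84, 6.72 and 6.81 on PLX3397 and 6.62, 6.59 and 6.65 on vehicle. Its wild-type vehicle libraries were the lowest 3 of the 12, and its range over the 12 libraries was 0.34 log2 units. The differences were 0.22 ± 0.09, limma adjusted p = 0.203 for genotype on vehicle and 0.17 ± 0.09, limma adjusted p = 0.230 for the drug in wild type, neither called. Psmf1, an inhibitor of the core in vitro, had 5.49, 5.47 and 5.32 log2 CPM in R6/2 on PLX3397 and 5.56, 5.40 and 5.36 in R6/2 on vehicle. Psmf1 in wild type had 5.22, 5.43 and 5.26 on PLX3397 and 4.88, 4.94 and 5.23 on vehicle. It too was lower in all wild-type vehicle libraries than in all R6/2 vehicle libraries, by a difference of 0.42 ± 0.13, limma adjusted p = 0.0978 that was not called. Psme4 had 5.39, 6.34 and 5.38 log2 CPM in R6/2 on PLX3397 and 5.11, 5.54 and 5.63 in R6/2 on vehicle. Psme4 values in wild type were 4.39, 5.80 and 5.79 on PLX3397 and 6.38, 6.11 and 5.66 on vehicle. Its values ranged over 1.99 log2 units, with wild-type PLX3397 library 1 lowest, and its interaction of 1.00 ± 0.55, limma adjusted p = 0.207 was not called.

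The chaperones that build the complex are of different kinds: Psmg1 to Psmg4 assemble the core, and Psmd5, Psmd9 and Psmd10 the base of the cap. Psmd9 had 4.92, 5.07 and 4.75 log2 CPM in R6/2 on PLX3397 and 5.27, 4.82 and 4.94 in R6/2 on vehicle. Psmd9 in wild type had 5.08, 5.56 and 5.24 on PLX3397 and 4.62, 4.61 and 4.87 on vehicle. It was called for the drug in wild type (0.59 ± 0.17, limma adjusted p = 0.0396). Psmd10, also known as gankyrin, had 4.02, 4.14 and 4.05 log2 CPM in R6/2 on PLX3397 and 4.40, 4.10 and 4.004 in R6/2 on vehicle. Psmd10 values in wild type were 4.39, 4.59 and 4.46 on PLX3397 and 4.10, 3.99 and 4.19 on vehicle. Its wild-type PLX3397 libraries were above the R6/2 PLX3397 libraries. Psmg4 had 2.25, 2.47 and 2.36 log2 CPM in R6/2 on PLX3397 and 2.85, 2.46 and 2.20 in R6/2 on vehicle. Psmg4 in wild type had 3.07, 3.42 and 2.76 on PLX3397 and 2.12, 2.58 and 2.35 on vehicle. Both were lower in R6/2 than in wild type on PLX3397, with differences of -0.41 ± 0.14, limma adjusted p = 0.0396 for Psmd10 and -0.72 ± 0.23, limma adjusted p = 0.0343 for Psmg4, and only the value of Psmd10 kept its size with the trend removed (-0.55 ± 0.16, against 0.05 ± 0.19 for Psmg4). Psmd5 had 6.15, 5.84 and 5.87 log2 CPM in R6/2 on PLX3397 and 5.76, 5.76 and 5.75 in R6/2 on vehicle. Psmd5 values in wild type were 5.66, 5.75 and 5.68 on PLX3397 and 5.73, 5.57 and 5.85 on vehicle. It was higher in all R6/2 PLX3397 libraries than in all wild-type PLX3397 libraries, with a difference of 0.25 ± 0.12, limma adjusted p = 0.109 that was not called. Psmg1, Psmg2 and Psmg3 were called in no comparison, with changes of 0.23 to 0.50 for the drug in wild type and -0.42 to -0.29 for genotype on PLX3397.

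Psmc3ip, which is no proteasome subunit, had 1.49, 2.35 and 1.83 log2 CPM in R6/2 on PLX3397 and 2.14, 1.78 and 2.00 in R6/2 on vehicle. Psmc3ip in wild type had 2.80, 2.81 and 2.43 on PLX3397 and 2.32, 2.36 and 1.99 on vehicle. These levels stand for 66 to 159 reads per library. It was lower in R6/2 than in wild type on PLX3397 (-0.79 ± 0.25, limma adjusted p = 0.0302).

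Other genes of the ubiquitin and proteasome pathway were given by a list of 38 measured genes, chosen like the 45 with results of these data known. For the drug in wild type 5 of the 38 were called higher and 1 lower, against 5.93% and 8.3% of all genes. Adrm1, a ubiquitin receptor of the cap, changed by 0.75 ± 0.13, limma adjusted p = 0.00920, the ubiquitin gene Ubb by 0.49 ± 0.12, limma adjusted p = 0.0255, the ubiquitin-activating enzyme Uba1 by 0.43 ± 0.13, limma adjusted p = 0.0473, Bag6 by 0.52 ± 0.11, limma adjusted p = 0.0181 and the heat shock factor Hsf1 by 0.48 ± 0.13, limma adjusted p = 0.0365. Ecpas, a large adaptor that binds proteasomes, changed by -0.56 ± 0.15, limma adjusted p = 0.0319. With the GC and length trend removed, the adjusted p of these 6 genes by limma lay between 0.113 and 0.817, and the calls held in 4 (Uba1) to 19 (Adrm1 and Bag6) of 23 alternatives. For the drug in R6/2, 0 of the 38 were called by limma or by limma-voom, where limma called 0.0585% of all genes higher and 1.04% lower. At an unadjusted p under 0.05 limma gave 1 of the 38 higher (Uba6) and 2 lower (Psmb8 and Irf1), with no share of all genes at that threshold given.

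For R6/2 against wild type on PLX3397, 6 of the 38 were called higher and 6 lower, 15.8% each way, against 17.1% and 17.9% of all genes. The 6 lower genes included the cap subunit Sem1 (-0.77 ± 0.18, limma adjusted p = 0.00916), the maturation factor Pomp (-0.52 ± 0.17, limma adjusted p = 0.0337), Adrm1 (-0.62 ± 0.13, limma adjusted p = 0.00556) and Akirin2, which helps proteasomes into the nucleus (-0.35 ± 0.12, limma adjusted p = 0.0371). The 6 higher genes included the activating enzyme Uba6 (1.53 ± 0.43, limma adjusted p = 0.0195), the protease Ddi2 (1.32 ± 0.43, limma adjusted p = 0.0339), Ecpas (0.80 ± 0.15, limma adjusted p = 0.00284) and Ngly1 (0.45 ± 0.13, limma adjusted p = 0.0214). Ddi2 and Ngly1 process Nfe2l1, the transcription factor known to raise proteasome genes when degradation is blocked. Nfe2l1 itself was called in no comparison (0.08 ± 0.12, limma adjusted p = 0.668 for the drug in wild type and -0.12 ± 0.12, limma adjusted p = 0.434 for genotype on PLX3397). Ubqln4 (-0.41 ± 0.15, limma adjusted p = 0.0492) and Bag6 (-0.38 ± 0.11, limma adjusted p = 0.0246) were the other falls, and Uba3 (0.63 ± 0.13, limma adjusted p = 0.00464) and Nfya (1.14 ± 0.19, limma adjusted p = 0.00196) the other rises. These calls held in 6 (Ubqln4) to 22 (Nfya) of 23 alternatives.

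On vehicle, 2 of the 38 were called between R6/2 and wild type, both higher, where 0.617% of all genes were called higher: Nfya, a subunit of the CCAAT-binding factor NF-Y (1.18 ± 0.19, limma adjusted p = 0.0235), and Irf1, a transcription factor of the interferon response (0.93 ± 0.21, limma adjusted p = 0.0476). Both were also called with the trend removed, at 1.09 for Nfya and 0.79 for Irf1, and on PLX3397 so were Nfya (1.23) and Sem1 (-1.21) among the 12 called as deposited. On vehicle limma-voom called Nfya but not Irf1 (adjusted p = 0.0554). At an unadjusted p under 0.05, limma gave 13 of the 38 higher and 0 lower on vehicle, with no share of all genes at that threshold given. Nfya lost its call without R6/2 vehicle library 2 or 3 or wild-type vehicle library 1 or 2, and its adjusted p by limma reached 0.122. Irf1 kept its call in 2 of the 12 fits that left out 1 library, those without wild-type PLX3397 library 1 or wild-type vehicle library 3. The interaction was called for 7 of the 38, 2 above 0 and 5 below, against 9.29% and 7.71% of all genes, with Ubb (-0.61 ± 0.17, limma adjusted p = 0.0338), Adrm1 (-0.96 ± 0.18, limma adjusted p = 0.0146), Sem1 (-0.83 ± 0.25, limma adjusted p = 0.0466), Ubqln4 (-0.73 ± 0.21, limma adjusted p = 0.0381) and Bag6 (-0.61 ± 0.16, limma adjusted p = 0.0307) below 0 and Uba6 (2.46 ± 0.61, limma adjusted p = 0.0248) and Ecpas (0.84 ± 0.21, limma adjusted p = 0.0243) above it. None of the 7 was called by limma with the trend removed, where the smallest adjusted p was 0.0555, for Sem1.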

How the data were processed

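Striatal RNA of 12 mice was sequenced from TruSeq libraries, per the labels' protocols. STAR, featureCounts, edgeR, limma and mm10 are named in the submitters' processing notes, with no versions; strand and the treatment of reads shared with pseudogenes or paralogs are not given in the sources used here. The deposited table is named as RPKM, but its values are log2 CPM: each library has the same minimum, and with the log and scaling undone 100% of values lay within 0.1 of a whole read. The deposited log2 values were used as they are, with no further pseudocount or filter. Recovered reads came to 18902120 to 24293208 per library.

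The 45 proteasome genes and all lists and motifs were chosen with earlier results of these data known. Groups come from the labels, which give separate mice. limma 3.58.1 (R 4.3.3), with an intensity trend, fitted 4 group means to all 12 libraries; tests were two-sided, adjusted over 15397 genes and called under 0.05. Values in every library were given for genes called in any comparison, for the 2 largest rises and falls of each comparison, for the catalytic subunits and the activators and inhibitor, and for the highest and lowest level per kb. Other genes of the pathway were named where called, with Nfe2l1, Psmb8 and Psmb9 added after their values were seen; 3 further genes of these lists were left out of the counts and are not reported here.

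Alternatives were median-of-ratios scaling, 1 CPM added before logs, filters on low values, the libraries of the pair alone, a replicate block, limma-voom on recovered reads with the deposited scaling, leaving out each library, leaving out both R6/2 libraries low in cortical genes, these with the wild-type one (added after seeing the data) or the pair high in genes of the choroid plexus, and removal of a spline trend on GC content and length. Leaving out both R6/2 libraries low in cortical genes left 1 library of R6/2 on PLX3397. Those fits are still among the alternatives counted for single genes. GC content and length are of the longest coding transcript in GENCODE M21 (14305 genes). Gene positions and promoters are from RefSeq on GRCm38. Python 3.11.15 with pandas 2.3.3 made the tables, and the test was tried on simulated data.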

Additional observations from a re-analysis of the deposited data

Results flagged for a closer look

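The drug's change differed between R6/2 and wild-type mice, by limma's test of the interaction, for 12 proteasome genes, all with a change below 0 in R6/2 relative to wild type. The interactions were -0.64 for Psmb2, -1.08 for Psmb5 and -0.92 for Psmb6 in the core. In the ATPase ring they were -0.66 for Psmc1, -0.61 for Psmc2, -1.01 for Psmc3 and -0.84 for Psmc4. In the rest of the cap they were -0.59 for Psmd2, -1.04 for Psmd3, -0.75 for Psmd7, -0.78 for Psmd8 and -0.81 for Psmd13. The same test called 7 other genes of the pathway, at -0.61 for Ubb, -0.96 for Adrm1, -0.83 for Sem1, -0.73 for Ubqln4, -0.61 for Bag6, 0.84 for Ecpas and 2.46 for Uba6. With the GC and length trend removed limma called 0 of the 12 and 0 of the 7 interactions; that of Uba6 was 0.53, that of Ecpas -0.12 and that of Sem1 -1.92, with an adjusted p of 0.0555.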

How the results depend on the processing

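In R6/2 against wild type on vehicle and in the drug comparison in R6/2, no alternative called any of the 45 genes. Leaving out 1 library at a time, the count was 0 to 28 for the drug in wild type, 3 to 27 for genotype on PLX3397 and 1 to 27 for the interaction, and the medians were 0.12 to 0.28 for genotype on vehicle, 0.32 to 0.60 for the drug in wild type, -0.18 to -0.04 for the drug in R6/2, -0.53 to -0.25 for genotype on PLX3397 and -0.75 to -0.47 for the interaction. The libraries of the pair alone gave 0 for the drug in wild type and 1 for genotype on PLX3397, with fewer samples behind the spread. Without R6/2 PLX3397 libraries 1 and 2, low in cortical genes, the count for the drug in wild type was 2. It was 21 without wild-type PLX3397 library 1 as well (chosen after seeing the data). Both fits leave 1 library of R6/2 on PLX3397, so no count is given for genotype on PLX3397 or the interaction. When both choroid-high libraries were left out, the counts for the drug in wild type, genotype on PLX3397 and the interaction were 29, 29 and 22. After removal of the trend on GC and length they were 2, 7 and 0, with medians of 0.20, -0.11 and -0.22; the difference on PLX3397 turned to 0.0544 for Psmb2, 0.0389 for Psmb3, 0.0253 for Psmc4, 0.0241 for Psmd3 and 0.0456 for Psmg4, and the interaction of Psmb2 to 0.000158. The replicate numbers share only a number: same-numbered libraries deviated with correlations of -0.32 to 0.40, 3 of 18 over 0.1, and 1 of 12 libraries matched its own number best. With the replicate block the counts were 2, 10 and 3.

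Over all genes, calls for genotype on vehicle were 325, against 40 with the block, 620 without the trend, 145 by limma-voom, 103 without both choroid-high libraries, 737 without all 3 cortical-low ones, 1 without wild-type vehicle library 1 or 2 and 2 without R6/2 vehicle library 2. For the drug in wild type they were 2191, against 351 in the pair alone, 1110 with the block, 462 without the trend, 1317 without both R6/2 cortical-low libraries, 3560 without both choroid-high ones and 228 to 2716 without 1 library. For the drug in R6/2 they were 169, against 53 with a mean of at least 1 log2 CPM required, 98 in the pair alone and 125 to 381 without 1 library. For genotype on PLX3397 they were 5389, against 2934 in the pair alone, 3397 without the trend and 3383 to 5630 without 1 library. For the interaction they were 2617, against 1432 with the block, 41 without the trend and 537 to 3532 without 1 library. Without both R6/2 cortical-low libraries these comparisons rest on 1 library of R6/2 on PLX3397, so their counts are not given. Of the alternatives for the genes with values given in every library, 3033 kept their side of the threshold, 448 lost a call, 47 gained one and 6 were counted as reversed. The 6 do not include every change of sign in differences that were not called. For genotype on vehicle, Psmb1 kept its sign in 19 of 23 alternatives and Psmd10 in 21. With 3 mice per group, the smallest adjusted p among the 45 genes was 0.0117, and Psmc3ip, at 66 to 159 reads, had the fewest reads.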
